A study of Mus musculus with 4 samples.

Results

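MHC class II presentation and costimulation genes were examined as a set of 10: H2-Aa, H2-Ab1, H2-Eb1, H2-DMa, H2-DMb1, Cd74, Ciita, Cd40, Cd80 and Cd86. They were taken by gene symbol from a deposited table of 34745 mouse genes, and all 10 were found there once each and had enough counts to be tested. The cells were BMMs, primary monocytes and macrophages grown from the bone marrow of wild-type (wt) male C57BL/6 mice 8 weeks of age. All cells had been kept without FBS for 12 h and were then given complete medium with RANKL, the cytokine that drives osteoclast formation, at 100 ng/mL for 24 h. One group received dimethyl itaconate (DI), a cell-permeable ester of the macrophage metabolite itaconate, and the other its vehicle DMSO. The labels give the dose of DI as 20 mM, whereas the methods of the study give 20 μM. There were 2 mRNA libraries per group, and the labels do not say whether they came from separate mice or cultures, so the p-values measure only the spread between these libraries. BMMs are a bulk culture, in which fewer cells of a type and less RNA per cell cannot be told apart.

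MHC class II molecules carry peptides from endosomes to the surface of antigen-presenting cells, where CD4+ T cells read them. An α chain and a β chain pair in the endoplasmic reticulum around the invariant chain CD74, whose remnant is later exchanged for peptide with the help of H2-DM. Transcription of these genes depends on CIITA, a coactivator that binds no DNA itself and is recruited by factors sitting on the X and Y boxes of their promoters. T cells also need a second signal from CD80 and CD86, and the receptor CD40 receives help from T cells in return. Macrophages carry class II at a low level until they are activated, classically by interferon-γ.

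The promoters of 4 members are shown because the X and Y boxes are the sequences on which CIITA acts. Each run holds the 150 bases before the RefSeq start of the gene on GRCm38.p6, read 5′ to 3′ on the strand of the gene. Capitals mark the form CTNGNAAC of the X box, the letters ATTGG of the Y box, which is the reverse complement of CCAAT, and, in H2-Aa, a joined pair of TGACG matches on opposite strands.
H2-Aa, chr17:34287824-34287973, minus strand: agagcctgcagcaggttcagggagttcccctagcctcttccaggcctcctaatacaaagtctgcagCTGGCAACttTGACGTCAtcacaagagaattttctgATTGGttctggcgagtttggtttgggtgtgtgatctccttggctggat
H2-Eb1, chr17:34305717-34305866, plus strand: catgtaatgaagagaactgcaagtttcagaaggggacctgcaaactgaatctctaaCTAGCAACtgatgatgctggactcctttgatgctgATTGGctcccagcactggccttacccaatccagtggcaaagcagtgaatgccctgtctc
H2-DMb1, chr17:34153041-34153190, plus strand: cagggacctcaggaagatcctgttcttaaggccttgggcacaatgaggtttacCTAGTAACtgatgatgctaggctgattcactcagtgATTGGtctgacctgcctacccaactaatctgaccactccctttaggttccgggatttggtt
Cd80, chr16:38458783-38458932, plus strand: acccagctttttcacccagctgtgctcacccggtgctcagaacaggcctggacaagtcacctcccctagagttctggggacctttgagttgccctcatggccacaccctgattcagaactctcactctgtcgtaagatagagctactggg

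The X box form began 84 bases before the RefSeq start in H2-Aa, 94 in H2-Eb1 and 97 in H2-DMb1. For H2-DMb1 the RefSeq start lay 119 bases past the start in the deposited table, so both boxes fell inside the gene as given there. ATTGG followed after 28, 27 and 28 bases, so that the arrangement was nearly the same in the 3 class II promoters. Cd80, which belongs to another gene family, held neither in its window. In GENCODE M21 Cd80 starts upstream of this window, at 38455561, and the bases before that start were not searched. Among 32851 RefSeq promoter windows, each from 250 bases before to 50 after a start, CTNGNAAC was found on either strand in 13.2% and CCAAT in 37.4%. CTNGNAAC followed by ATTGG at a distance of 20 to 50 bases on the gene's strand was found in 53 windows (0.161%), which included H2-Aa, H2-Eb1, H2-DMb1 and the further class II gene H2-Ob. This form of the X box was chosen after the sequences were seen, and the 3 promoters are therefore a description of the letters only. The looser form CCNNGNNAC, fixed beforehand and present in 47.4% of windows, was found in the windows of H2-Aa, H2-DMb1 and H2-DMa, but not of H2-Eb1. In H2-DMb1 a match from -98 to -90 covered the X box in capitals. The match in H2-Aa lay elsewhere, from -180 to -172. TGACG, the core of a cyclic AMP response element, was present in 20.8% of windows. TTCNNNGAA, a STAT form present in 8.30% of windows, had no match in the member windows on either strand. The same held for an IRF form and an NF-κB form of 10 letters each, present in 3.44% and 1.47% of windows. The 2 RefSeq windows of H2-DMa lay 12350 and 9664 bases from the start of the gene in the deposited table and are not printed. H2-Ab1, Ciita, Cd40, Cd86 and Cd74 had no entry.

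**Figure D1:**
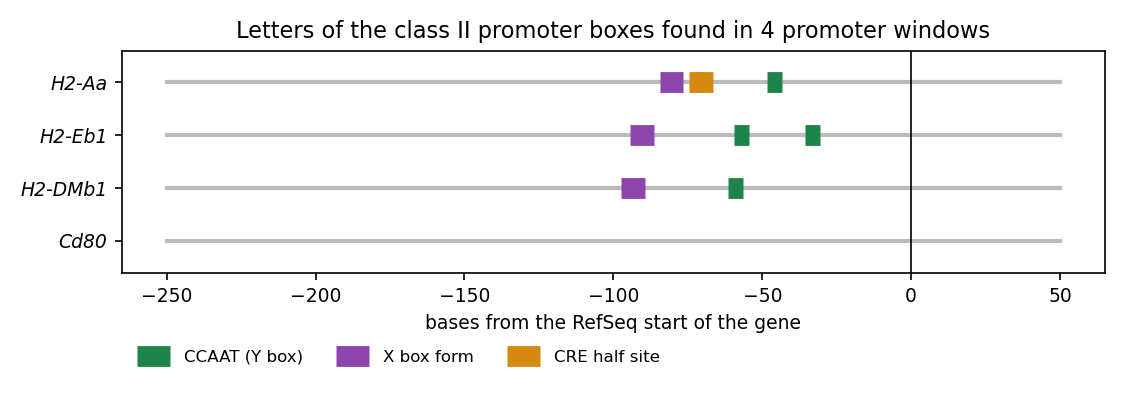
Positions of the X box form CTNGNAAC, of CCAAT on either strand (Y box) and of TGACG on either strand (core of a cyclic AMP response element, CRE) in the RefSeq windows of H2-Aa, H2-Eb1, H2-DMb1 and Cd80, from 250 bases before to 50 after the start, in bases from the start. In the 3 class II promoters the X box form began 84 to 97 bases before the start and a Y box followed after 27 or 28 bases, H2-Eb1 held a second CCAAT closer to the start, and Cd80 held none of these.

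The libraries held between 16085692 and 19403480 counts, and CPM values are counts relative to these totals after correction by TMM factors. On this scale 3 counts correspond to 0.160 to 0.180 CPM. With edgeR's quasi-likelihood test and Benjamini-Hochberg adjustment, 1868 of 12590 tested genes passed an adjusted p of 0.05 (14.8%), 969 of them lower and 899 higher with DI. When only the library totals were used for scaling, 1932 were lower and 548 higher, since the median log2 fold change of all genes then shifted from 0.00 to -0.10. The labelled cell type was met by its markers. The summed level of 10 macrophage markers was 22492 to 29508 CPM, of which Lyz2 alone gave 17617 to 23770 CPM. The Lyz2 transcript shares 95.8% identity with Lyz1 over 96.0% of its length. Csf1r had 1283 to 1409 CPM, and the lowest of the 10, Fcgr1, had 12.0 to 20.9 CPM. Pax5 and Blk of B cells, Cd3e, Cd3g and Trac of T cells and Ly6g of neutrophils had 0 counts in every library. Markers of other cells that were counted included Ighm (186 to 435 counts per library), Cd22 (166 to 262), S100a8 (47 to 80), S100a9 (44 to 60) and Cd4 (24 to 46).

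Of the 10 members, 2 fell with DI and 0 rose, where 7.70% of all tested genes fell and 7.14% rose. The 2 were Cd74 and H2-Ab1. Ciita, H2-Eb1, H2-Aa and Cd40 had lower values in both DI libraries than in either DMSO library without passing the adjusted threshold. H2-DMa, H2-DMb1, Cd80 and Cd86 overlapped between the groups. Thus 6 of 10 members did not overlap and were lower with DI, a pattern seen in 29.6% of all tested genes, and 0 of 10 did not overlap and were higher, against 29.0%. The same 6 members had an unadjusted p under 0.05 in the lower direction (15.6% of all tested genes) and 0 in the higher (14.4%). An absolute log2 fold change over 1 together with an unadjusted p under 0.05 was met by Ciita and H2-Eb1, which were lower, where 1.43% of all tested genes were lower and 1.02% higher by this rule. DESeq2, edgeR's exact test and limma-voom called 1, 3 and 2 members lower, respectively, and 0 higher. The median log2 fold change of the members was -0.54, against 0.00 for all tested genes.

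**Figure D2:**
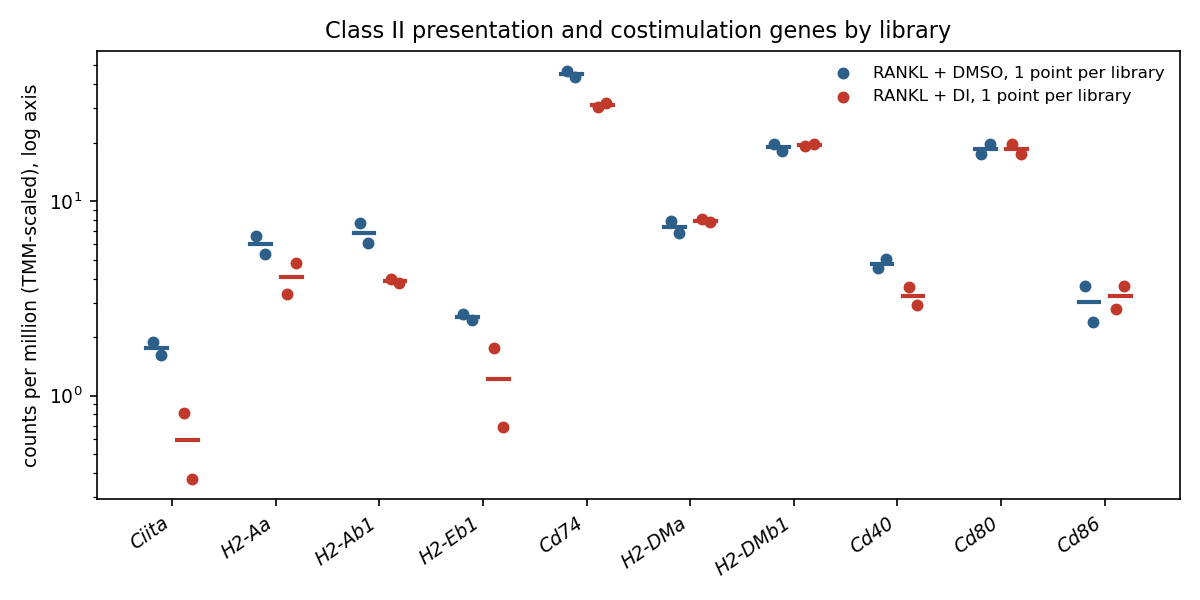
Level of each of the 10 members in CPM (TMM scaled, log axis) in the 2 DI and 2 DMSO libraries, with points for libraries and bars for the group means. Both DI libraries lay below both DMSO libraries for H2-Aa, H2-Ab1, H2-Eb1, Cd74, Ciita and Cd40, and the groups overlapped for H2-DMa, H2-DMb1, Cd80 and Cd86.

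Ciita (ENSMUSG00000022504, GRCm38 chromosome 16, 10488178 to 10527564) encodes the coactivator of class II transcription. Its counts were 14 and 7 in the DI libraries and 35 and 27 in the DMSO libraries. Both DI libraries lay well below both DMSO libraries, but the counts were few in every library. The mean level was 0.594 ± 0.313 CPM with DI and 1.75 ± 0.182 CPM with DMSO (SD, n = 2 each). The log2 fold change of -1.57 (SE 0.414) was the largest in size among the members, with a 95% interval from -2.58 to -0.553. Its adjusted p by edgeR's quasi-likelihood test was 0.058, which misses the threshold. Over 13 alternative fits the adjusted p ranged from 0.00379 to 0.217. Ciita was called in 5 of them, among them scaling by library size only (0.0396), no filter on low counts (0.0281) and the fit without DI replicate 1 (0.0499). Without DI replicate 2, the library with 7 counts, the log2 fold change was -1.09 and the adjusted p 0.217. The exons of Ciita share 3.45% of their bases with Dexi on the opposite strand, and no source used here says that strand was used in counting.

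The classical chains H2-Aa, H2-Ab1 and H2-Eb1 form the I-A and I-E molecules that display peptide. C57BL/6 mice lack a working I-E α chain, and the pseudogene H2-Ea-ps that takes its place had 0 counts in every library. H2-Ab1 (ENSMUSG00000073421, chromosome 17, 34263209 to 34269418), the β chain of I-A, was counted 68 and 71 times with DI and 144 and 101 times with DMSO. The DI libraries nearly coincided, whereas the DMSO libraries stood apart from each other and above both. The mean level was 3.87 ± 0.124 CPM with DI and 6.89 ± 1.18 CPM with DMSO (SD, n = 2 each). H2-Ab1 thus fell by 0.84 on the log2 scale (SE 0.18, 95% interval from -1.28 to -0.394, edgeR adjusted p = 0.0315), to 0.560 of its level with DMSO. This call did not survive every omission of a library: the adjusted p was 0.0621 without DI replicate 1, 0.0788 without DI replicate 2 and 0.14 without DMSO replicate 1, and 0.0438 without DMSO replicate 2. With DESeq2's Wald test it was 0.0553. The log2 fold change lay between -0.995 and -0.647 over the 4 omissions.

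H2-Aa (ENSMUSG00000036594, chromosome 17, 34282744 to 34287827), the α chain of I-A, had counts of 57 and 90 with DI, and of 124 and 89 with DMSO. After scaling for depth these were 3.32 and 4.80 CPM against 6.65 and 5.34 CPM. The higher DI library and the lower DMSO library were close to each other. H2-Aa had a log2 fold change of -0.56 (SE 0.228, 95% interval from -1.12 to -0.00234) with an edgeR adjusted p of 0.165, and none of 15 alternative fits called it (adjusted p from 0.0738 to 0.463).

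H2-Eb1 (ENSMUSG00000060586, chromosome 17, 34305877 to 34316199), the β chain of I-E, had counts of 30 and 13 with DI, and of 49 and 41 with DMSO. The DI libraries differed from each other by more than the DMSO libraries did. H2-Eb1 had a log2 fold change of -1.08 (SE 0.414, 95% interval from -2.09 to -0.0616), with an edgeR adjusted p of 0.147. It was called only without DI replicate 1, where the log2 fold change was -1.87 and the adjusted p 0.0336. Without DI replicate 2, the library with 13 counts, it was -0.54. Summed over the 3 chains, the authors' FPKM values were 4.29 and 3.93 with DI and 8.40 and 6.98 with DMSO, a mean of 4.11 ± 0.251 against 7.69 ± 1.0 FPKM (SD, n = 2 each). The summed FPKM with DI was 0.534 of that with DMSO. FPKM are not corrected by TMM factors and weigh the chains by length, and in CPM the sum was 9.15 with DI and 15.4 with DMSO, or 0.593. An exact permutation test of 2 against 2 libraries cannot give a two-sided p below 0.333.

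Cd74 (ENSMUSG00000024610, chromosome 18, 60803848 to 60812646) encodes the invariant chain, the chaperone of newly made class II. The DI libraries held 528 and 601 counts of it and the DMSO libraries 871 and 728, or 30.7 and 32.0 CPM against 46.7 and 43.7 CPM. The gap between the groups was several times the distance between libraries of a group. Cd74 fell by 0.53 on the log2 scale (SE 0.0705, 95% interval from -0.699 to -0.353, edgeR adjusted p = 0.00696), to 0.694 of its level with DMSO. All 15 alternative fits kept the call, with adjusted p-values from 0.000197 to 0.0377, and the log2 fold change lay between -0.573 and -0.477 when a library was left out. Cd74 was also the member with the highest level, so that its fold change, smaller than those of Ciita, H2-Eb1, H2-Ab1, H2-Aa and Cd40, came with the smallest standard error.

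H2-DMa and H2-DMb1 are the chains of H2-DM, which removes the remnant of the invariant chain and edits the peptides that are bound. For H2-DMa (ENSMUSG00000037649, chromosome 17, 34135182 to 34139101) the counts were 139 and 146 with DI, and 147 and 114 with DMSO. H2-DMb1 (ENSMUSG00000079547, chromosome 17, 34153072 to 34160230) had counts of 332 and 371 with DI, and of 366 and 303 with DMSO. The groups overlapped for both chains. The log2 fold change of H2-DMa was 0.11 (95% interval from -0.228 to 0.439, edgeR adjusted p = 0.659). That of H2-DMb1 was 0.05 (95% interval from -0.176 to 0.272, edgeR adjusted p = 0.776), and it changed sign, to -0.06, when scaled by library size only. These intervals leave room for modest changes in either direction. H2-DMb1 also shares 95.7% identity with its neighbour H2-DMb2 over 76.9% of its transcript, so that reads may have been split between them, and H2-DMb2 itself had counts of only 2 and 13 with DI, and of 9 and 8 with DMSO. The exons of H2-DMa share 10.4% of their bases with Brd2 on the opposite strand.

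The ratio of H2-DMb1 to H2-Ab1 in FPKM set the chain that did not pass the test against the one that fell. It was 6.93 and 7.42 with DI and 3.61 and 4.26 with DMSO. The ratio of Cd74 to the summed classical chains was 3.45 and 3.93 with DI and 2.88 and 3.24 with DMSO. Both ratios were higher in each DI library than in either DMSO library. For the second the closest values of the groups, 3.45 and 3.24, lay near each other. They were added to the ratios planned beforehand, and the first mainly restates the fall of H2-Ab1. The second restates that Cd74 was lowered by less than the summed chains. The planned ratio of Cd74 to H2-Ab1 was 9.13 and 9.95 with DI and 7.11 and 8.47 with DMSO. The ratios of H2-Aa to H2-Ab1 (0.77 and 1.16 against 0.791 and 0.81) and of H2-DMb1 to H2-DMa (3.18 and 3.38 against 3.31 and 3.53) overlapped between the groups. Ratios were not tested.

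The receptor CD40 binds its ligand on T cells and relays this signal to NF-κB. Cd40 (ENSMUSG00000017652, chromosome 2, 165055627 to 165072948) had counts of 62 and 55 with DI, and of 84 and 84 with DMSO. Both DI libraries lay below both DMSO libraries. Its log2 fold change of -0.55 (SE 0.19, 95% interval from -1.01 to -0.0807) had an edgeR adjusted p of 0.116 and was called in none of 15 alternative fits (0.0578 to 0.386).

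CD80 and CD86 engage CD28 and CTLA-4 on T cells. Cd80 (ENSMUSG00000075122, chromosome 16, 38458933 to 38486933) had counts of 339 and 327 with DI, and of 327 and 329 with DMSO. The 4 counts were nearly equal, and after scaling the values of the groups interleaved, at 19.7 and 17.4 CPM with DI and 17.5 and 19.7 CPM with DMSO. Its level with DI was 0.997 of that with DMSO, with a 95% interval of the log2 fold change from -0.28 to 0.271 (edgeR adjusted p = 0.986). Cd86 (ENSMUSG00000022901, chromosome 16, 36603869 to 36666081) had counts of 48 and 69 with DI, and of 68 and 40 with DMSO. The spread within each group exceeded the difference between the group means, 3.24 ± 0.624 and 3.02 ± 0.883 CPM (SD, n = 2 each). The log2 fold change was 0.09 (95% interval from -0.584 to 0.771, edgeR adjusted p = 0.864) and turned to -0.01 when scaled by library size only. The interval of Cd86 includes differences in either direction.

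**Figure D3:**
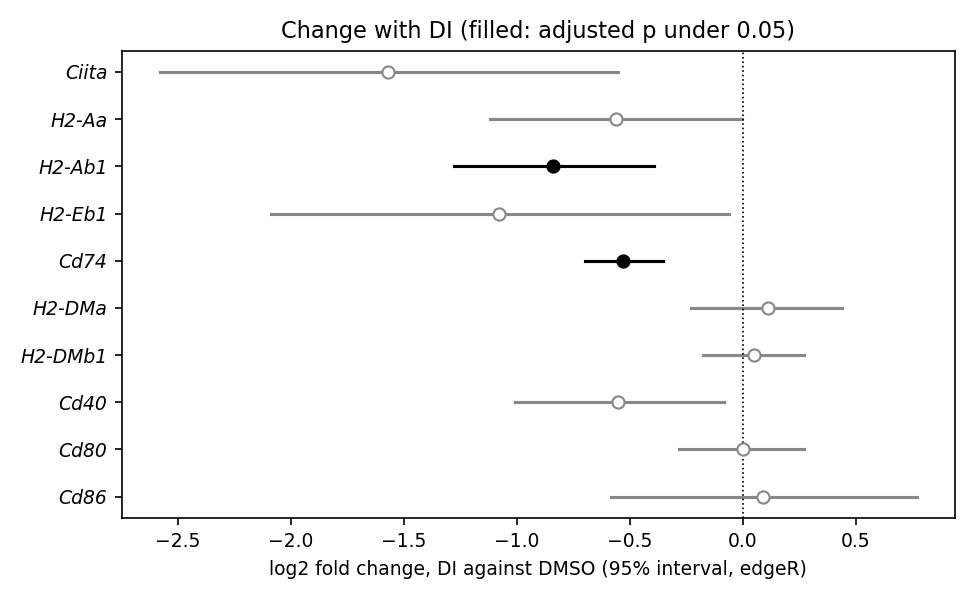
Log2 fold change of each member, DI against DMSO, from edgeR's quasi-likelihood fit with a line for its 95% interval and filled points for members past an adjusted p of 0.05. Cd74 (-0.53) and H2-Ab1 (-0.84) passed the adjusted threshold, whereas the intervals of H2-DMa, H2-DMb1, Cd80 and Cd86 include 0.

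Levels of different genes were compared as the authors' FPKM, which correct by a single length per gene, so that the order depends on those lengths. With DMSO the order of the mean levels was Cd74 (23.4 FPKM), H2-DMb1 (11.8), Cd80 (11.4), H2-DMa (3.46), H2-Ab1 (3.03), H2-Aa (2.43), H2-Eb1 (2.23), Cd40 (0.894), Cd86 (0.672) and Ciita (0.345). The library values of H2-DMb1 and Cd80 overlapped, as did each neighbouring pair from H2-DMa to H2-Eb1. With DI the order was Cd74 (15.1 FPKM), H2-DMb1 (11.4), Cd80 (10.5), H2-DMa (3.47), H2-Ab1 (1.59), H2-Aa (1.53), H2-Eb1 (0.993), Cd86 (0.669), Cd40 (0.57) and Ciita (0.109). Here H2-DMa stood clear of the classical chains, while each neighbouring pair from H2-Ab1 to Cd40 overlapped. Cd40 and Cd86 changed places between the groups. Cd80 exceeded Cd86 in FPKM in every library, by 19.4- and 13.0-fold with DI and by 13.2- and 22.6-fold with DMSO. These folds rest on implied lengths of 1701 bases for Cd80 and 4666 for Cd86, whereas their GENCODE M21 exons cover 3703 and 3661 bases. In CPM, which carry no length, Cd80 averaged 18.6 with DI and 18.6 with DMSO, and Cd86 3.24 and 3.02. For Cd40 the implied length was 5531 bases, against 3406 exon bases in GENCODE M21. Among all tested genes the mean FPKM of Cd74 lay at the percentile 82.7, that of H2-Ab1 at 33.5 and that of Ciita at 6.02, so that apart from Cd74, H2-DMb1 and Cd80 the members belonged to the lower part of the range.

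H2-DMa, H2-DMb1, H2-Ab1, H2-Aa and H2-Eb1 lie within 181 kb of the class II region on chromosome 17, from 34135182 to 34316199. A further 10 genes of the table lie between them, of which 5 were tested. These were Tap1, Tap2, Psmb8, Psmb9 and Gm15821, of which the first 4 serve the class I pathway. Their log2 fold changes were -0.14, -0.15, -0.31, -0.11 and -0.08, respectively. Psmb8, a subunit of the immunoproteasome that was picked out after its value was seen, fell (edgeR adjusted p = 0.0144), and 0 of the 5 rose.

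Of 7 further class II genes that were looked up, 5 were in the table and none had enough counts to be tested. H2-Eb2 and H2-Ea-ps had 0 counts in every library. The chains of H2-DO, an inhibitor of H2-DM, were close to the floor: H2-Oa had counts of 2 and 1 with DI, and of 5 and 4 with DMSO, and H2-Ob had 2 counts in a single DMSO library.

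Among 18 genes for factors that act on class II promoters or on Ciita, or that carry the interferon-γ signal to them, 17 were tested, of which 1 fell and 2 rose, with a median log2 fold change of -0.01. Irf8, a factor of the macrophage lineage, rose from 91.4 and 92.2 to 124 and 126 CPM (log2 fold change 0.45, SE 0.045, edgeR adjusted p = 0.00301). Nfya, a subunit of the complex that binds the Y box, rose by 0.16 on the log2 scale (edgeR adjusted p = 0.0486), a call lost in 12 of 15 alternative fits. The X box factors Rfx5, Rfxap and Rfxank, chosen here after their values were seen, had log2 fold changes of -0.03, 0.08 and 0.05 and were not called. Ifng, the interferon itself, had 0 counts in every library.

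Genes for the endosomal processing of antigen include the cathepsins, proteases that cut antigens and the invariant chain. Of 14 tested, 7 rose and 0 fell, with a median log2 fold change of 0.22, and with 0 of them lower at an unadjusted p under 0.05 as well. Ctss, the protease that trims the invariant chain in macrophages, rose by 0.28 on the log2 scale (SE 0.0287, edgeR adjusted p = 0.00317). Ctsb, Ctsd and Ctsh rose with log2 fold changes of 0.34, 0.47 and 0.48, and Ctsl, Ctsz and Lgmn with 0.22, 0.24 and 0.24. The calls of Ctsl, Ctsz and Lgmn were lost when scaled by library size only, which left 4 of 14. The list also holds Tap1 and Tap2 of the class I pathway, which were not called. The exons of Ctsd share 34.4% of their bases with Gm49369. The ratio of Ctss to Cd74 in FPKM was 142 and 137 with DI and 76.4 and 83.2 with DMSO. This ratio was not planned beforehand, sets a gene that rose against one that fell, and is no separate result.

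Of 6 tested genes for the turnover of class II, 1 rose and 0 fell. March1, the ubiquitin ligase that marks class II and CD86 for degradation, was 64.6 and 71.5 CPM with DI and 44.1 and 43.0 CPM with DMSO. Both DI libraries lay well above both DMSO libraries. March1 rose with a log2 fold change of 0.64 (SE 0.0734, edgeR adjusted p = 0.00431), and all 15 alternative fits called it. Its exons share 7.64% of their bases with Gm15354 on the opposite strand. At an unadjusted p under 0.05, 2 genes of this list were lower and 1 was higher, edgeR's exact test called 1 lower, and DESeq2 and limma-voom called 0 lower.

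Among 20 further costimulators, adhesion partners and checkpoint ligands, 14 were tested, of which 3 rose and 1 fell (median log2 fold change 0.23). Slamf7, a receptor of the SLAM family, rose by 0.51 on the log2 scale (SE 0.0434, edgeR adjusted p = 0.0019). Cd48, a ligand in the same family, rose by 0.35, as did Vsir, which encodes the checkpoint protein VISTA. Icam1, an adhesion ligand of T cell integrins, fell by 0.22 (SE 0.0407, edgeR adjusted p = 0.0192). The call of Icam1 was lost with edgeR's exact test and without DI replicate 1, DMSO replicate 1 or DMSO replicate 2.

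Of 11 genes listed for the signal of CD40, 4 fell and 0 rose, with a median log2 fold change of -0.20. At an unadjusted p under 0.05 or with DESeq2, edgeR's exact test or limma-voom, 0 were higher. The cultures received RANKL, and the sources used here name no ligand of CD40 among the additions. Whether these changes involve CD40 was not tested. Traf1, an adaptor induced by NF-κB, had 47.3 and 41.0 CPM with DI and 82.7 and 105 CPM with DMSO. It fell by 1.09 on the log2 scale (SE 0.129, edgeR adjusted p = 0.00491), and all 15 alternative fits called it. Traf2, a further adaptor, fell by 0.44, Birc3, a ubiquitin ligase of the same complex, by 0.31, and Nfkb2, the precursor of the non-canonical NF-κB subunit, by 0.26. Without DMSO replicate 1 their log2 fold changes were -0.395, -0.272 and -0.252, close to those with all libraries, but the edgeR adjusted p-values were 0.0527, 0.0611 and 0.0516, so that 1 of 11 genes was called. Over all genes the calls went from 1868 to 1120 in that fit.

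**Figure D4:**
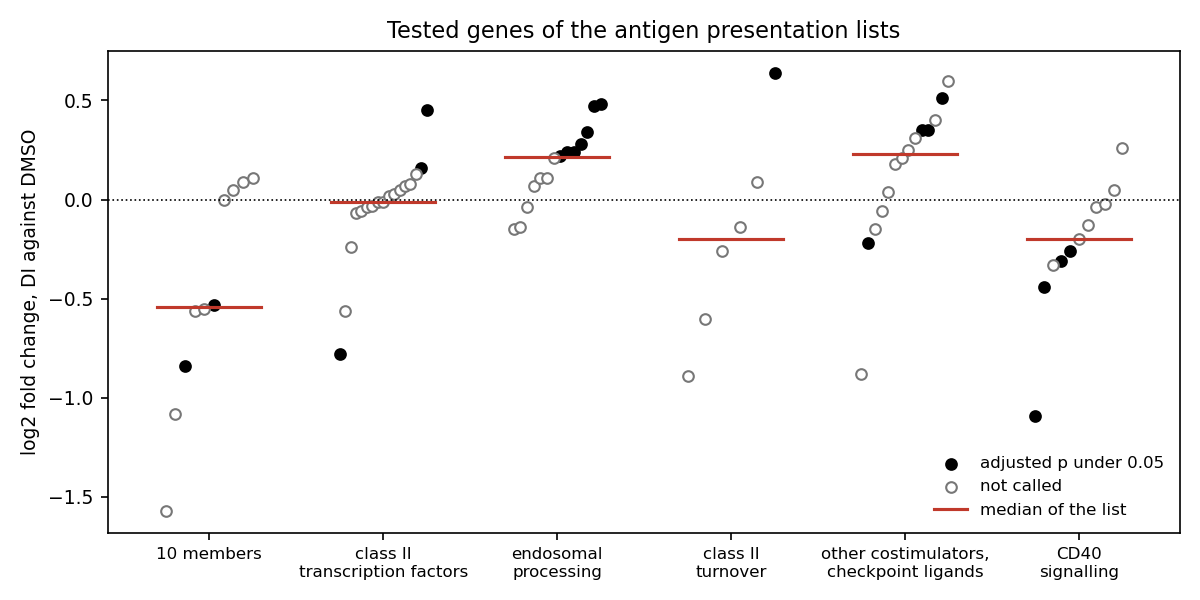
Log2 fold change, DI against DMSO, of each tested gene in the member set and in the lists for class II transcription factors, endosomal processing, class II turnover, other costimulators and CD40 signalling, with filled points for genes past an adjusted p of 0.05 and a bar for the median of each list. The medians were -0.54, -0.01, 0.22, -0.20, 0.23 and -0.20, against 0.00 over all 12590 tested genes.

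Class II is abundant on dendritic and B cells, so markers of these and other cells were read beside the members. Of 10 dendritic cell markers, 8 had at most 10 counts in every library, and Cd209a and Siglech had 0. The remainder were Itgax, which macrophages also express (490 and 450 CPM with DI, 421 and 411 CPM with DMSO, edgeR adjusted p = 0.074), and Cd24a. The summed level of the list was 464 to 508 CPM with DI and 425 to 436 CPM with DMSO, higher in both DI libraries. With edgeR's quasi-likelihood test 0 of the 2 tested markers were called, with 1 higher and 0 lower at an unadjusted p under 0.05, and DESeq2, edgeR's exact test and limma-voom called 0.

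Of 9 B cell markers, 7 had at most 10 counts in every library. Ighm, the immunoglobulin heavy chain of B cells, had counts of 364 and 435 with DI, and of 196 and 186 with DMSO, and rose by 1.03 on the log2 scale (SE 0.103, edgeR adjusted p = 0.00298). The summed level of the list was 35.3 to 36.6 CPM with DI and 21.0 to 21.7 CPM with DMSO and was thus higher in both DI libraries. Of 9 T and NK cell markers, 6 had 0 counts in every library, and the summed level was 1.97 to 2.10 CPM with DI and at least 2.52 CPM with DMSO. The 8 neutrophil markers summed to 10.3 to 11.1 CPM with DI and 9.23 to 10.4 CPM with DMSO. Neither list had a called gene with edgeR's quasi-likelihood test, DESeq2, edgeR's exact test or limma-voom, and at an unadjusted p under 0.05 each had 1, lower among T and NK cell markers and higher among neutrophil markers. The part of other cells in the results for the members was not tested.

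Markers of macrophages and osteoclasts also differed between the groups. Of 10 macrophage markers, 6 rose and 3 fell. Itgam, Mertk, Lyz2, Adgre1 and Cd68 were among those that rose, with log2 fold changes of 0.57, 0.43, 0.37, 0.18 and 0.18, and Fcgr1, Cx3cr1 and Cd14 fell with -0.60, -0.57 and -0.51. The exons of Itgam share 68.7% of their bases with Gm49368 on the same strand. Cd68 lost its call in 7 of 15 alternative fits, Adgre1 in 5, Fcgr1 in 4 and Cx3cr1 in 1. Scaled by library size only, the log2 fold changes of Adgre1 and Cd68 were 0.0747 and 0.0764 (edgeR adjusted p = 0.15 and 0.237), and edgeR's exact test called 4 of the markers higher. Fcgr1 was not called without DI replicate 2 (-0.445, adjusted p = 0.0826), DMSO replicate 1 (-0.635, 0.0758) or DMSO replicate 2 (-0.56, 0.106). Adgre1 was not called without DI replicate 1 (edgeR adjusted p = 0.0769), Cx3cr1 without DMSO replicate 2 (0.0644), and Cd68 without DI replicate 1 (0.125), DI replicate 2 (0.057) or DMSO replicate 2 (0.0898). Of 9 tested osteoclast markers, 6 fell and 2 rose. Ocstamp, Mmp9, Acp5, Ctsk, Nfatc1 and Tnfrsf11a fell, with log2 fold changes of -2.52, -1.64, -0.95, -0.58, -0.43 and -0.35, and Itgb3 and Atp6v0d2 rose with 0.56 and 0.27. The changes thus went both ways within each of these lists. How much of the difference in the members went with them was not tested.

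The genes whose pattern over the 4 libraries was nearest to that of Ciita were D230017M19Rik, Gbp3, Il34, Slc17a8 and Syt6, at Euclidean distances from 0.295 to 0.372 in gene-centred log2 CPM. Gbp3, a guanylate-binding protein induced by interferon, had counts of 116 and 84 with DI, and of 255 and 229 with DMSO (log2 fold change -1.29, edgeR adjusted p = 0.0102). D230017M19Rik, the nearest, and Il34, Slc17a8 and Syt6 had at most 20 counts in any library and were not called (edgeR adjusted p from 0.136 to 0.177). Only 1 tested gene lay within a distance of 0.3 of Ciita. Cd74 had 1174 tested genes within 0.3, and the nearest were Bcar3, Eme1, Srd5a1, Nat10 and Efcab11, at distances from 0.0223 to 0.0517. The distance was not scaled by the size of the change, so a gene with a smaller change, such as Cd74, tends to have more neighbours. These distances are descriptions over 4 libraries and were not tested.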

How the data were processed

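RNA was measured in 4 mRNA libraries, 2 with DI and 2 with DMSO, grouped by their labels. The authors deposited raw read counts for every gene. FPKM values deposited beside them follow from these counts and a single length per gene, and served for levels between genes. A second deposited table repeats both with functional terms and was used only to check that they are identical. The submitters' processing notes name GRCm38 and mm10, and the aligner and counting program are not given in the sources used here.

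Counts were tested in R 4.3.3 with edgeR 4.0.16 (TMM factors, default filter on low counts, quasi-likelihood test, condition as sole term), with p-values adjusted by Benjamini-Hochberg over 12590 genes. The total counts of 16085692 to 19403480 per library put the floor of 3 counts at 0.160 to 0.180 CPM, which covers counting error only. Libraries of one group differed by more than sampling noise (chi-square per degree of freedom 7.57 for DI and 7.74 for DMSO), so each was counted as 1 replicate. The step was tested on simulated data. Symbols were matched by the gene name in the deposited table or, where that failed, by the GENCODE M21 symbol of the identifier. GENCODE M21 held 34267 of the identifiers. Some symbols had been turned into dates in the table and March1 was matched by its identifier. Exons were compared within GENCODE M21 and transcripts with BLAST+ 2.17.0. Promoter windows came from RefSeq on GRCm38.p6.

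Alternatives were scaling by library size only, by upper quartile factors or by size factors of DESeq2 1.42.0, no filter or a minimum of 10 counts per library, limma-voom (limma 3.58.1), edgeR's exact test, the Wald test of DESeq2, log2(FPKM + 0.01) and log2(FPKM + 1) with limma, a replicate block, a threshold of an absolute log2 fold change over 1 with an unadjusted p under 0.05, and each library left out in turn. The text names the 10 members, the called genes of each list or else its member with the most counts, the nearest patterns of Ciita and of the member with the smallest p, and genes that overlap or copy a member. Some genes that this rule includes are not reported here. Members and lists were chosen with earlier results of these data known.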

Additional observations from a re-analysis of the deposited data

How the results depend on the processing

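Over all genes, 1932 were lower and 548 higher when scaled by library size only, 1674 and 529 with log2(FPKM + 0.01), and 1674 and 536 with log2(FPKM + 1). With a library left out, 1087 to 1394 genes were called, 529 to 712 lower and 558 to 682 higher. Of the members, 1 was called with DESeq2's Wald test and 1 to 3 with a library left out. Under an absolute log2 fold change over 1 with an unadjusted p under 0.05, 2 members were called, which were H2-Eb1 and Ciita in place of Cd74 and H2-Ab1. Ciita gave no value under the minimum of 10 counts and no adjusted p with DESeq2. Endosomal processing had 4 calls under library size only, edgeR's exact test and both FPKM scales, and 6 to 7 with a library left out. Turnover had 2 with the exact test, and other costimulators had 7 and dendritic cell markers 1 with no filter. With a library left out, the calls ranged from 1 to 5 for CD40 signalling, from 0 to 1 for dendritic cell markers and from 1 to 2 for B cell markers.

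Of the members with overlapping groups, H2-DMb1 had a log2 fold change of -0.0557 with library size only, -0.0541 with log2(FPKM + 0.01), -0.0499 with log2(FPKM + 1), and -0.00482 to 0.105 with a library left out. Cd86 had -0.0097 with library size only, and -0.167 to 0.434 with a library left out, with -0.119 without DI replicate 2. Cd80 ranged from -0.0941 to 0.086, with 0.086 without DI replicate 2 and 0.0832 without DMSO replicate 2. The cause was not tested. No other member changed sign.

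For libraries with the same number, the deviations from the group means had a correlation of -0.0302 over all tested genes. This single value cannot show whether such libraries shared a mouse, a culture or a batch. With the replicate block 1389 genes (704 lower, 685 higher) and 2 members were called. Low counts of Ciita and H2-Eb1, at most 49 per library, limit what these 4 libraries can show.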
